A study of Homo sapiens with 4 samples.

Results

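Nuclear copies of mitochondrial DNA are stretches of nuclear chromosomes that came from the mitochondrial genome. The 154 listed RNA sites described here were chosen, with earlier results of these data known, as the sites whose start lies in a window of chromosome 1 (585134 to 647311) or in the span of PCBD2 on chromosome 5 (134905131 to 134962644), or whose assigned symbol begins with MTRNR2L. Of the 17625 sites in the list, 105 came from the chromosome 1 window and 49 from the PCBD2 span. No site carried an MTRNR2L symbol. The 257 sites on the mitochondrial genome served for comparison, and 17214 other nuclear sites made up the rest of the list. Members were thus chosen by measured values, the positions and assigned symbols of the sites, so their number and place are a description and carry no test.

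The sites come from NCI-H1299, an established human lung cancer line kept in standard serum-containing medium, with no treatment or genetic change in the labels. LACE-seq was used, a method that maps where a protein touched RNA by amplifying cDNA ends from RNA pulled down with an antibody. The groups are 2 libraries with an antibody against P5CS, a mitochondrial enzyme of proline synthesis encoded by ALDH18A1, and 2 with IgG, which has no chosen target, and the series title asks whether P5CS binds RNA in the control of translation. The list gives position, strand, region and assigned gene on hg38, but no level per library, so anti-P5CS and IgG were not compared, depth is unknown, no value has a replicate error, and the cell type could not be checked against marker levels. Intervals are 95% exact binomial intervals and cover counting error only.

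The mitochondrial genome encodes 37 genes on 1 small circle: ribosomal RNAs, transfer RNAs and subunits of the respiratory chain and ATP synthase. Both of its strands are transcribed into long precursors that are cut into the mature RNAs, and these RNAs are abundant. Nuclear copies keep fragments of these genes as pseudogenes, named after the parent gene, such as MTCO1P12 for COX1. MTRNR2L genes are copies of the large mitochondrial ribosomal RNA gene RNR2 and are known for short reading frames that resemble the peptide humanin. A short read from such a region can match both a copy and the mitochondrial genome. No source used here says how reads with several matches were placed, and a site in a copy does not show whether its RNA came from the nucleus or the mitochondrion.

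The edge of the chromosome 1 copy is shown because there the listed sites can be set against the sequence flanking the copy. The sequence below is the plus strand of hg38, chr1:628960-629259, from RefSeq's promoter table for LOC101928626 (GRCh38.p14). Capitals mark bases in a listed site on either strand.

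Copy edge: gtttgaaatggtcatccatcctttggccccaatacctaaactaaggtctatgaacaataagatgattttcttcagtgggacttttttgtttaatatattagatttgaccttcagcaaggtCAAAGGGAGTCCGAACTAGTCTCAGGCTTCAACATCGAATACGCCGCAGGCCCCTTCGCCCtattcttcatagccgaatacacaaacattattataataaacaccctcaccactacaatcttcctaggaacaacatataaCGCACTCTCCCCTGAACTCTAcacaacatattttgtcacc

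Of the 102 bases ahead of the annotated start of MTND1P23 at 629062, 0 lay in a site, and of the 198 bases from that start on, 82 did. These 82 bases form 2 runs. The first run held a minus-strand site at 629080 to 629140 and a plus-strand site at 629120 to 629140. The second was a pair of sites with identical coordinates on both strands, 629220 to 629240.

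A microRNA gene lies inside the same copy. MIR12136 is annotated on the minus strand at chr1:632615-632685, between MTCO1P12 and MTCO2P12, and its hairpin and mature forms from RefSeq (GRCh38.p14) are shown because the list's own naming ties this copy to a mitochondrial tRNA gene. In the hairpin, capitals mark bases inside a listed minus-strand site. In the mature form they mark the seed, bases 2 to 8.

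MIR12136 hairpin: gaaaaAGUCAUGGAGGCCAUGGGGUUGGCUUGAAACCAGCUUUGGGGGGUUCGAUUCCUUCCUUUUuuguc
hsa-miR-12136: gAAAAAGUcauggaggcc

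The minus-strand site at 632620 to 632680 covered 61 of the 71 hairpin bases and was assigned to LOC101928626. A plus-strand site at 632560 to 632660 overlapped it and was assigned to MTCO1P12. Placed on the mitochondrial genome through the neighbouring pseudogenes, the hairpin fell at 7446 to 7516, over TRNS1 at 7446 to 7514, a mitochondrial tRNA gene for serine. In the list, 1 of 3 mitochondrial sites over TRNS1, on the minus strand at 7480 to 7500, carried the symbol MIR12136. The others, at 7440 to 7500 on the plus and 7440 to 7460 on the minus strand, were assigned to COX1. The name MIR12136 was thus given to 1 mitochondrial site and to neither of the chromosome 1 sites over the annotated hairpin.

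All 154 sites lay inside the pseudogene blocks of the windows. On chromosome 1 the block runs from MTND1P23 to MTCO3P12, 629062 to 634922, and takes up 9.43% of the window, yet it held 105 of the 105 sites. The first site began 18 bases after the start of the block and the last ended 22 bases before its end. The nearest sites outside the window ended at 498280 below it and began at 724200 above it. On chromosome 5 the block runs from MTCYBP18 to MTND3P25, 134923303 to 134928527, which is 9.08% of the PCBD2 span, and it held 49 of 49 sites. The nearest sites outside that span ended at 134888000 and began at 137332720. Both windows were therefore empty outside the annotated copies.

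The assigned names differ from the pseudogenes for chromosome 5. PCBD2, which encodes a pterin carbinolamine dehydratase that also acts as a dimerization cofactor of HNF1, was the assigned gene of 48 sites, all of its sites in the list. Their distances from the PCBD2 transcript start ran from 18280 to 23100 bases. Of these sites 45 overlapped a mitochondrial pseudogene and the other 3 lay between pseudogenes, annotated as intron. The list's own annotation text named PCBD2 for 3 of the 48 and another gene for 45. The remaining chromosome 5 site was assigned to MTCYBP18. On chromosome 1, LOC101928626, a long noncoding RNA gene, was the assigned gene of 18 sites, 17 of them annotated as its intron and lying between pseudogenes. Altogether 134 of the 154 sites (87.0%) overlapped a pseudogene, and the region column called 125 exon, 20 intron and 9 5' UTR.

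Each of the 7 pseudogenes on chromosome 1 had sites on both strands. MTCO1P12, the copy of the cytochrome c oxidase subunit gene COX1, had 26 sites, 14 on the plus and 12 on the minus strand, and 52.7% of its bases lay in a site. MTND2P28, from the NADH dehydrogenase subunit gene ND2, had 18 sites over 43.0% of its bases. The widest site of the copies, 201 bases on the minus strand at 631880 to 632080, was in MTCO1P12.

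The other chromosome 1 pseudogenes were covered to a similar degree. MTCO2P12 and MTCO3P12, from the oxidase subunit genes COX2 and COX3, had 13 and 10 sites over 42.1% and 41.9% of their bases. MTATP6P1 and MTATP8P1, which overlap each other and come from the ATP synthase subunit genes ATP6 and ATP8, had 11 and 6 sites over 56.1% and 40.6%. MTND1P23, a fragment of ND1, had 8 sites over 38.0%. Across the 7 pseudogenes the covered share thus ran from 38.0% to 56.1%.

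With the chromosome 1 copy placed on the mitochondrial genome through its pseudogenes, mitochondrial transfer RNA genes fell between the pseudogenes. All 11 mitochondrial tRNA genes that fall within this stretch had at least 1 placed chromosome 1 site, and all 11 also had a site on the mitochondrial genome. TRNA, for alanine, and TRNK, for lysine, had 4 placed sites each, and TRND, for aspartate, had 1. The 17 sites named as introns of LOC101928626 were the sites that, once placed, touched a mitochondrial tRNA gene and no protein gene. The sequence of the copy was not checked for tRNA genes.

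On chromosome 5 the cover was thinner and more uneven. MTND5P11, from the NADH dehydrogenase subunit gene ND5, had 21 sites over 25.6% of its bases, and MTND6P4, from ND6, had 9 over 36.2%. MTND4LP30, from ND4L, had 4 sites over 48.1%, whereas MTND4P12, from ND4, had 8 over 10.5%. MTCYBP18, from the cytochrome b gene CYTB, had 5 sites over 9.77%, and MTND3P25, a fragment of ND3, had 0. Of the 5 tRNA genes 3 in the stretch had a placed site and 4 had one on the mitochondrial genome. The densities were 17.9 sites per kb on chromosome 1 and 9.38 on chromosome 5, against 18.9 and 16.5 per kb in the matching mitochondrial stretches. Of the 13 pseudogenes in both blocks 12 had a site, beside 7.98% of all 59792 RefSeq genes and 6.3% of all 17088 RefSeq pseudogenes, but the blocks were chosen for their sites and nothing is read from that contrast.

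**Figure D1:**
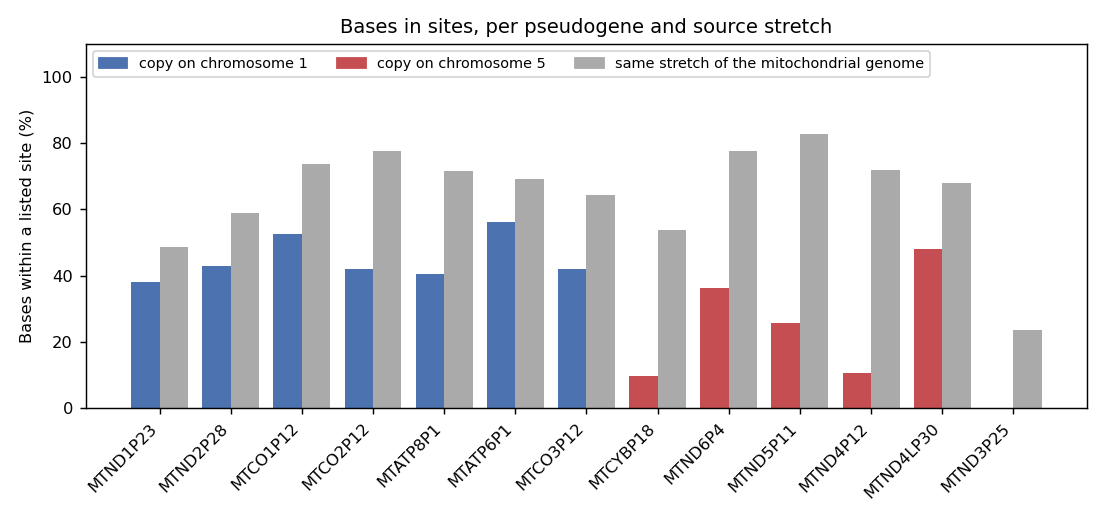
Share of bases within a listed site of either strand (vertical axis, %) for each pseudogene of the copies on chromosomes 1 (blue) and 5 (red), with the same stretch of the mitochondrial genome in grey. Each pseudogene was covered less than its source stretch, from 56.1% in MTATP6P1 down to 0 in MTND3P25, and there are no replicates and no error bars.

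The gene order allowed sites of the copies to be placed on the mitochondrial genome without its sequence. On chromosome 1 the pseudogenes run in mitochondrial order. Ends of 5 pseudogenes that have nearly the full length of the parent gene gave 10 offsets between 625169 and 625175, a spread of 6 bases, and the block matched mitochondrial positions 3893 to 9753. On chromosome 5 the order is inverted, 8 such ends spread over 5 bases, and the block matched positions 10269 to 15493. The 2 copies hold different parts of the mitochondrial genome, and neither holds its ribosomal RNA genes. Strands of the chromosome 5 sites were turned to those of the source.

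At the fitted placement, sites in the copies overlapped mitochondrial sites. Of the 105 placed chromosome 1 sites 105 overlapped a mitochondrial site by at least 1 base, 104 of them one on the same strand. Of the 49 chromosome 5 sites 48 did, all 48 with one on the same strand. Much of the source was covered, however, with 67.6% of its bases in a site in the first stretch and 70.9% in the second. At placements 10 or 20 bases away, overlaps by 1 base were also frequent. They were found for at least 93.3% of chromosome 1 sites and 91.8% of chromosome 5 sites. More distant placements were not tried.

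By bases, 84.0% of the chromosome 1 cover fell on covered mitochondrial bases, beside the 67.6% that are covered. Sites of the copy took up 60.0% of the mitochondrial bases that had a site and 23.9% of those that had none. For chromosome 5 the share was 85.8% beside 70.9%, and sites of the copy took up 24.7% of covered and 9.99% of uncovered mitochondrial bases. Read from the mitochondrial side, 101 of 111 sites (91.0%) in the first stretch overlapped a placed chromosome 1 site, and 34 of 86 (39.5%) in the second overlapped a placed chromosome 5 site. Some placements 10 or 20 bases away put more cover on covered mitochondrial bases, up to 86.1% for chromosome 1 and 94.8% for chromosome 5. Others put less there, down to 75.1% and 78.5%, so the fitted placement was not the one with the most overlap. Neighbouring bases and both strands share their sites, so these shares are descriptions with no test.

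**Figure D2:**
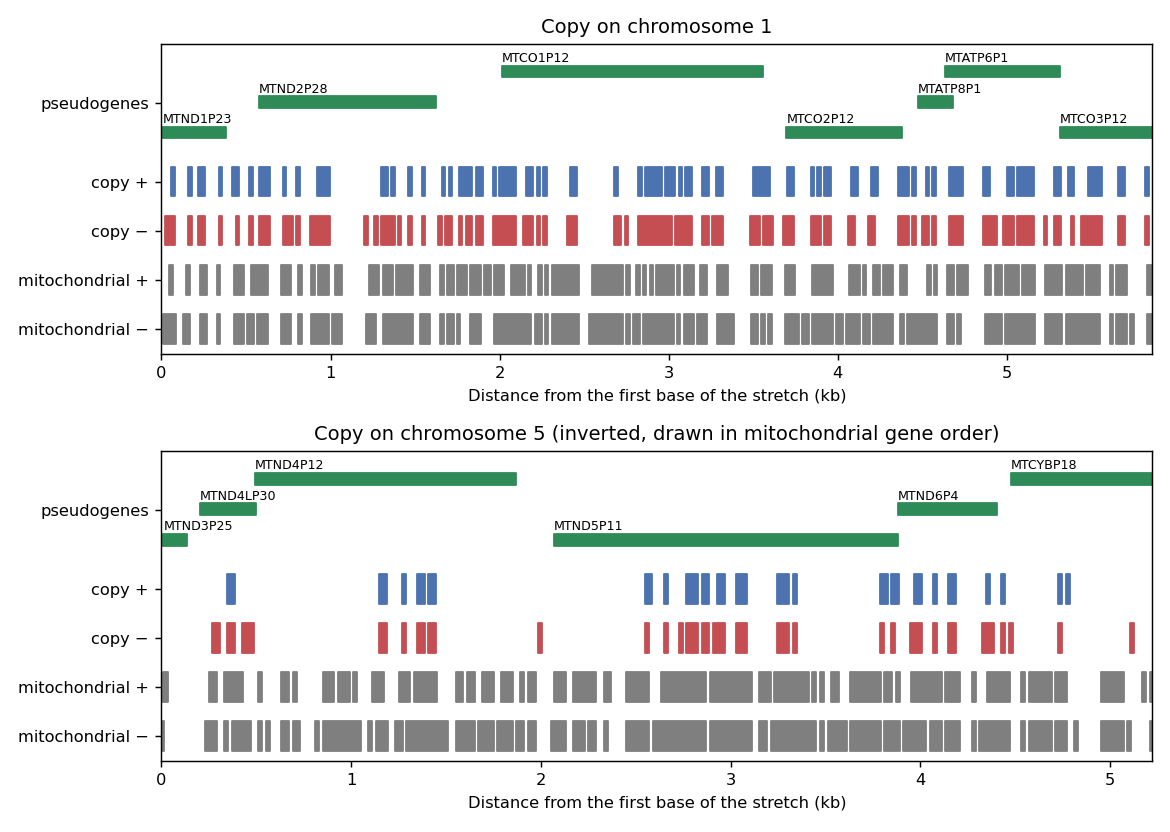
Listed sites on the copy (blue for plus, red for minus) and on the matching stretch of the mitochondrial genome (grey), by distance from the first base of the stretch in kb, with the pseudogenes in green. The 105 sites of the chromosome 1 copy are spread over the whole stretch, with an empty part of up to 219 bases, and the 49 of the chromosome 5 copy leave up to 659 bases empty.

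The longest parts of the copies without a site had sites on the mitochondrial genome. On chromosome 1 the longest such part was 219 bases in MTCO1P12, at 631521 to 631739, and 73.1% of its source was covered. The next, 199 bases in MTND2P28 at 630061 to 630259, had a source covered to 30.7%. On chromosome 5 the longest was 659 bases, at 134927381 to 134928039, nearly all in MTND4P12, and 61.0% of its source was covered. The next were of 539 bases each, at 134925981 to 134926519 and at 134926541 to 134927079, with sources covered to 62.9% and 75.9%. After them came 439 bases of MTND5P11, at 134924741 to 134925179, with a source covered to 87.0%. The whole stretches were covered to 67.6% for chromosome 1 and 70.9% for chromosome 5. Values for these empty parts lay on both sides of that, so nothing is read from them.

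The share of sites on each strand did not differ past the threshold from the rest of the list. On the strands of the nuclear chromosomes, 79 of the 154 sites were on the plus strand (51.3%, interval 43.1 to 59.4), against 52.5% of mitochondrial and 48.2% of other nuclear sites (odds ratios 0.952 and 1.13, adjusted p = 0.839 and 0.466 by the Fisher exact test, two-sided). With the strands of the inverted chromosome 5 copy turned to those of the source, 74 sites were on the plus strand (48.1%, odds ratio 0.836 against the mitochondrial genome, exact p = 0.415, a comparison added after the values were seen). Measured in bases on the strands of the source, the minus strand was covered more than the plus strand in both copies, 45.6% against 36.4% on chromosome 1 and 18.9% against 15.3% on chromosome 5. The source had the same order, 64.2% against 54.5% and 67.5% against 57.5%. Most mitochondrial messenger RNAs read along the plus strand. Each pair of sites with identical coordinates on both strands adds 1 site to each strand. Such pairs draw the share of every group towards an even split, so the comparison of shares says little about strand. Without them, 52.4% of the member sites were on the plus strand of the nuclear chromosomes. The odds ratios were then 0.938 against mitochondrial and 1.24 against other nuclear sites, neither past the threshold.

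Of the 154 sites 72 (46.8%, 38.7 to 55.0) had a partner at the same start and end on the opposite strand, together called pairs. This share did not differ past the threshold from the 37.4% of mitochondrial sites (odds ratio 1.47, two-sided Fisher exact test, adjusted exact p = 0.0946) or the 39.2% of other nuclear sites (1.36, adjusted exact p = 0.102). It was 40.0% (30.6 to 50.0) on chromosome 1 and 61.2% (46.2 to 74.8) on chromosome 5. For the chromosome 5 copy alone the difference passed, with an odds ratio of 2.65 against the mitochondrial genome and 2.45 against other nuclear sites (adjusted exact p = 0.00740 and 0.00299), and for the chromosome 1 copy alone it did not (1.12 and 1.03, adjusted exact p = 0.644 and 0.920). A difference between the copies was not tested. Against only the mitochondrial stretches that the copies hold, at 34.5%, the difference passed (odds ratio 1.67, adjusted exact p = 0.0323), a comparison added after the values were seen. Both sites of each pair were counted, and sites of 1 locus are not independent. The p-values for pairs are therefore too small, and differences that passed may not pass if each pair counts once.

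The share of sites with any overlap with a site of the other strand did not differ past the threshold between the copies and the mitochondrial genome. Such an overlap was present for 142 of the 154 sites (92.2%), for 94.2% of mitochondrial sites and for 58.4% of other nuclear sites. By the two-sided Fisher exact test the odds ratio was 8.42 against other nuclear sites, with an adjusted p of 2.97e-20, and 0.733 against mitochondrial sites, with an adjusted p of 0.807. Wider sites overlap more easily, and among sites of the smallest width, 21 bases, the shares were 84.4%, 84.9% and 53.4% in the same order (odds ratio against other nuclear sites 4.71, exact p = 2.39e-07, a comparison added after the values were seen). Sites that lie densely also overlap more easily, and density was not allowed for in either comparison. The windows were chosen for their sites, so nothing is read from the contrast with other nuclear sites. Sites of 1 locus are neighbours and not independent, so all of these p-values are too small.

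Sites of the smallest width were a larger share in the 2 copies together than on the mitochondrial genome. The smallest width was found in 64 sites (41.6%, 33.7 to 49.8), in 75.2% of other nuclear sites (odds ratio 0.234, adjusted p = 3.36e-18, Fisher exact test, two-sided) and in 28.4% of mitochondrial sites (odds ratio 1.79, adjusted exact p = 0.0209). Sites of 1 locus are neighbours and both sites of each pair were counted, so these p-values are too small. The windows were chosen for their sites, so nothing is read from the contrast of widths with other nuclear sites. Without both-strand pairs the odds ratio against the mitochondrial genome was 1.69 (Fisher exact test, adjusted p = 0.151), with fewer sites. With each pair counted once it was 1.77 (Fisher exact test, adjusted p = 0.0258), but the sites counted are still neighbours. The share of member sites at the smallest width was 41.0% on chromosome 1 and 42.9% on chromosome 5. Against the mitochondrial genome the difference missed the threshold for each copy alone, at an odds ratio of 1.75 for chromosome 1 and 1.89 for chromosome 5 (adjusted exact p = 0.0759 and 0.0930). The median width was 41 bases in each copy, 61 on the mitochondrial genome and 21 elsewhere. Sites wider than 100 bases numbered 10 of 105 on chromosome 1, 0 of 49 on chromosome 5, 68 of 257 (26.5%) on the mitochondrial genome and 720 of 17214 (4.18%) elsewhere. The widest site of the chromosome 5 copy was 61 bases, and the widest elsewhere in the nucleus 2641. A widest value depends on the number of sites, 49 against 17214, and a difference at the wide end was not tested.

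**Figure D3:**
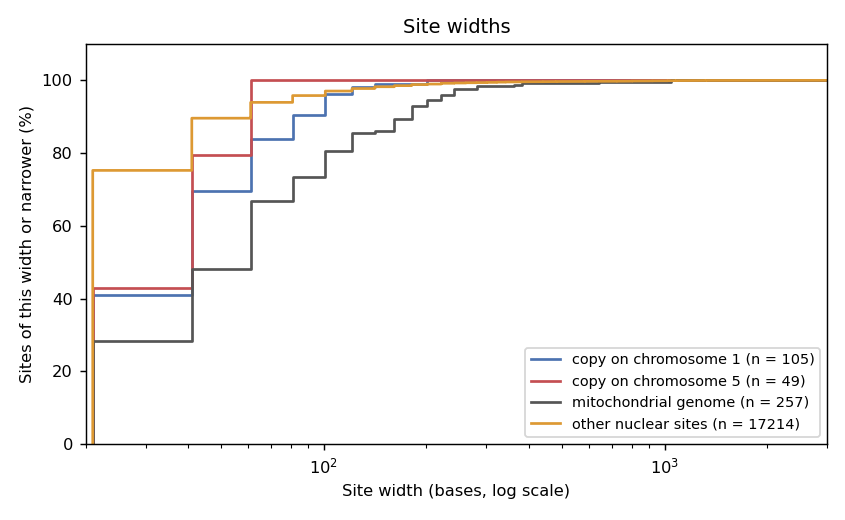
Cumulative share of sites (vertical axis, %) by site width in bases on a log scale, for the copies on chromosomes 1 (n = 105) and 5 (n = 49), the mitochondrial genome (n = 257) and other nuclear sites (n = 17214). At 21 bases the curves stand at 41.0%, 42.9%, 28.4% and 75.2%, so both copies lie between their source and the rest of the list up to 41 bases.

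MTRNR2L genes held sites although the list never names them. RefSeq gives 13 such genes, all as pseudogenes, and 12 of them had a listed site in their span, 100 sites in all. The share with a site was 7.98% for all RefSeq genes and 6.3% for all RefSeq pseudogenes. These sites are not among the 154. They were assigned to neighbours or overlapping genes or, for 11 sites, to no symbol.

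MTRNR2L8 on chromosome 11 (10507887 to 10509176) had most, 26 sites over 47.0% of its bases, all assigned to MIR4485, a microRNA gene inside it. MTRNR2L12 on chromosome 3 (96617186 to 96618223) had 17 over 48.9%, assigned to the pseudogene RPL18AP8. MTRNR2L1 on chromosome 17 had 15 over 19.9%, assigned to MTND1P15 or to no symbol. MTRNR2L2 had 11 over 56.5%, the highest covered share of the 13.

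The other 9 had 0 to 8 sites. MTRNR2L10 had 8, MTRNR2L6 and MTRNR2L9 had 5 each, and MTRNR2L11 had 4. MTRNR2L3 and MTRNR2L4 had 3 each, MTRNR2L7 had 2, MTRNR2L5 had 1 and MTRNR2L13 had 0. The 3 sites of MTRNR2L3 were assigned to RAE1, an mRNA export factor gene, and the 5 of MTRNR2L6 to the T cell receptor segment TRBV25-1. The source RNR2 had 13 sites over 96.3% of its bases, with a median width of 181 bases and the widest at 1041. Of the 100 MTRNR2L sites 58.0% had the smallest width and 50.0% were on the plus strand, and 54.0% were in pairs.

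**Figure D4:**
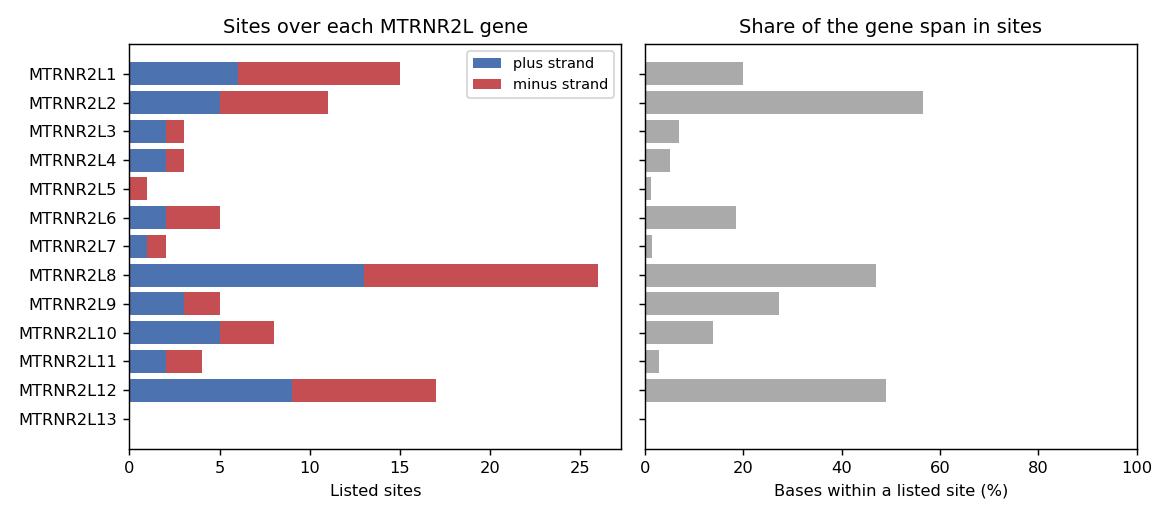
Number of listed sites by strand (left) and share of bases within a site in % (right) for the 13 MTRNR2L genes of RefSeq. MTRNR2L8 has most sites, 26, MTRNR2L2 the highest covered share, 56.5%, and MTRNR2L13 has none.

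The hairpin of MIR4485 in MTRNR2L8 is shown because all 26 sites of that gene carry its name. It lies on the minus strand at chr11:10508270-10508326. Sequences are from RefSeq (GRCh38.p14), with capitals for bases inside a listed minus-strand site in the hairpin and for the seed, bases 2 to 8, in the mature form.

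MIR4485 hairpin: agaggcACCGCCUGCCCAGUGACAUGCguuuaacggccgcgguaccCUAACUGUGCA
hsa-miR-4485-3p: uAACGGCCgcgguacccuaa

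The 2 pairs of sites, at 10508260 to 10508280 and at 10508300 to 10508320, both with identical coordinates on the 2 strands, touched the hairpin and covered 32 of its 57 bases. The mature form at 10508277 to 10508296 lay mostly between them. The mature forms of MIR12136 and MIR4485 have different seeds.

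Other nuclear copies had fewer sites. Of 487 RefSeq pseudogenes named for a mitochondrial gene or MTRNR2L, 65 (13.3%) had a site. Without the 13 of the blocks and the 13 MTRNR2L genes, 41 of 461 did (8.89%). The share was 7.98% for all RefSeq genes and 6.3% for all RefSeq pseudogenes, and no difference from these was tested. The highest count among the 461 was 14, in MTND5P10 on chromosome 5, named here after its value was seen. It belongs to a block of 11 pseudogenes at 100045928 to 100055045 with 36 sites, 3.95 per kb, over 5.92% of its bases. This is below the density of the PCBD2 block and far below that of the chromosome 1 block. How closely each copy matches the mitochondrial genome was not analysed here.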

How the data were processed

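Per the submitters' processing notes, fastp 0.23.2, STAR 2.7.10a and the build hg38 were used, with no role given for each. For the site caller, its threshold, the use of IgG and any pooling, the sources used here state nothing. What the authors deposited is 1 list of positions and widths in bases, with no measured level. All positions are multiples of 20 bases.

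The members and gene sets were chosen with earlier results of these data known. The planned test of anti-P5CS against IgG could not be run. Named genes are the MTRNR2L genes, PCBD2, genes assigned to the windows and their mitochondrial parents. Gene spans came from RefSeq (GRCh38.p14). Sites on either strand counted for a gene when they shared 1 base or more with its span. The table gives no scaffold, so some spans it places on a chromosome can be those of scaffolds. Copies were placed on the mitochondrial genome by the median offset of the ends of pseudogenes within 15 bases of the parent's length. Shares were compared by two-sided Fisher exact tests, adjusted by the Benjamini-Hochberg method over 3 shares (threshold 0.05). On simulated data, only the call for the smallest width was tested, with every site drawn independently. The listed sites are neighbours and often paired, which that simulation does not cover, so p-values of all these comparisons are too small. Python 3.11.15, pandas 2.3.3, numpy 2.4.6, scipy 1.17.1 and matplotlib 3.10.9 were used. The assigned gene of the MTRNR2L2 sites is not reported here.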

Additional observations from a re-analysis of the deposited data

How the results depend on the processing

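No paired analysis was possible because the list holds no value per library. The sequence match to the mitochondrial genome and the comparison of anti-P5CS with IgG were not run, for lack of a genome sequence and of values per library. Of 71 alternative values 52 kept their direction and their side of the threshold, or stayed near the reported value. In 4, none past the threshold before or after, the direction changed, all against the mitochondrial genome. The odds ratio for pairs went from 1.47 to 0.733 for any overlap with the other strand and to 0.958 for any overlap at the smallest width. That for the plus strand went from 0.952 to 1.11 without the chromosome 1 window and to 1.001 against the source stretches alone.

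Merging strands and touching sites left 77 regions, and adding the sites over RefSeq MTRNR2L spans gave 254. By RefSeq span 12 MTRNR2L genes had a site, against 0 by the symbol in the list. The share of sites in both-strand pairs was 61.2% without the chromosome 1 window and 92.2% when any overlap with the other strand counted. Against the mitochondrial genome the odds ratio for the smallest width was 1.89 without the chromosome 1 window, 1.75 without the PCBD2 span and 1.69 without both-strand pairs, none past the threshold, and each of these holds fewer sites. With each pair counted once it was 1.77, against the source stretches alone 1.88 and with the MTRNR2L spans 2.33, all past the threshold. For pairs it was 2.65 without the chromosome 1 window, 1.65 with the MTRNR2L spans and 1.67 against the source stretches alone, all past the threshold. Against other nuclear sites it was 2.45 and 1.53 in the first and second of these settings, 8.42 for any overlap and 4.71 for any overlap at the smallest width, also past the threshold. The windows were chosen for their sites, so nothing is read from the contrasts of any overlap with other nuclear sites. The MTRNR2L, source stretch, smallest width and turned strand settings were chosen after seeing the data, and so were placements of the copies 10 or 20 bases away, under which 75.1% to 86.1% of the chromosome 1 cover and 78.5% to 94.8% of the chromosome 5 cover fell on covered mitochondrial bases. The cause of these changes was not tested.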
